A study of Mus musculus with 22 samples.

Results

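The cytochrome P450 genes of families 1 and 2 were followed in the livers of mice treated with diclofenac, a non-steroidal anti-inflammatory drug. Members were the genes with a probe set annotated to a single symbol that begins with Cyp1 or Cyp2 and a letter. This rule, which uses no measured value, gave 47 probe sets for 38 of the 18194 genes with such a probe set. Of these, 11 were Cyp2c genes and 27 belonged to other subfamilies, with 8 Cyp2d, 5 Cyp2j, 4 Cyp2b and 2 Cyp1a genes and 1 gene each of Cyp1b, Cyp2a, Cyp2e, Cyp2f, Cyp2g, Cyp2r, Cyp2s and Cyp2u. The treated mice received diclofenac sodium at 30 mg/kg by daily intraperitoneal injection and the controls saline, and all were C57BL6 males of 8 weeks with no genetic alteration named. Livers were taken at day 1 (24 h), day 3 (72 h) or day 14, and 1 array was hybridised per liver, with 3 arrays per group at days 1 and 3 and 5 arrays per group at day 14. The labels call this dose low and name 5 mice per group, so that not every mouse of days 1 and 3 is represented by an array. Each p-value measures the spread between single livers.

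Cytochrome P450 enzymes are haem-containing monooxygenases of the endoplasmic reticulum that insert an oxygen atom into their substrate with electrons from P450 oxidoreductase and, for some reactions, cytochrome b5. Families 1 and 2 oxidise many drugs and foreign compounds in hepatocytes, and some members act on fatty acids, steroids, retinoids, vitamin D or bile acids. Many hepatic P450 genes are known to be expressed in zones, with Cyp1a2, Cyp2c29, Cyp2c37, Cyp2c50, Cyp2c54 and Cyp2e1 highest around the central vein and Cyp2f2 highest near the portal vein, and inflammatory cytokines are known to lower the mRNA of many of them. The 11 Cyp2c genes measured lie on chromosome 19 and the 8 Cyp2d genes on chromosome 15. The Cyp2a, Cyp2b, Cyp2e, Cyp2f, Cyp2g, Cyp2r and Cyp2s genes lie on chromosome 7, the Cyp2j genes on chromosome 4, the Cyp1a genes on chromosome 9, Cyp1b1 on chromosome 17 and Cyp2u1 on chromosome 3.

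The values are linear array signals without a unit, which the authors scaled to a common level per array, so that a signal can be compared between livers for 1 gene but not between genes. Differences are given on the log2 scale with their standard error from limma, and a gene was called when its p-value, adjusted over all genes tested, was under 0.05. Array medians were 75.2 to 89.9, and the correlation of log2 signals within a group was 0.876 to 0.926. The hepatocyte markers Alb, Apoa1, Ttr, Serpina1c, Tat and Cps1 were at high signal on every array, with 0 of 6 called on any day (at most 0.202% of all genes). The test took in genes brighter than the median probe set of the array on 3 or more arrays of a model, and 33 members (10 Cyp2c) met this at days 1 and 3 and 29 (10 Cyp2c) at day 14. Cyp2b13, Cyp2b19, Cyp2c65, Cyp2j11 and Cyp2j13 passed on none of these days, and Cyp1a1, Cyp2d34, Cyp2g1 and Cyp2s1 did not pass at day 14. A total of 7 members rest on a probe set whose name carries a suffix for probes that match more than 1 transcript, of several genes for Cyp2b10, Cyp2c23 and Cyp2c65 and of the same gene for Cyp1a1, Cyp2d9, Cyp2d13 and Cyp2f2. Close relatives within the Cyp2c and Cyp2d clusters may add to each other's signals. Replicate 3 of the diclofenac group at day 14 stood apart from the other livers in most members, and the day 14 differences of the members are given with and without it.

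Most members lay close to the saline level after diclofenac, and none was called at day 1, day 3 or day 14. The count was 0 of 33 members at day 1 (0% of all genes tested), 0 of 33 at day 3 (0.202%) and 0 of 29 at day 14 (0%). The mean of the 3 days' effects over all 22 arrays called 0 of 34 members (1.68% of all genes), and the difference between the day 3 and day 1 effects (0%) and that between the day 14 effect and the earlier effects (0.0225%) called 0 of 33 and 0 of 34. At an unadjusted p under 0.05 there were 7 of 33 members at day 1 (13% of all genes), all of them lower (6.34% of all genes), 6 of 33 at day 3 (10.8%) and 3 of 29 at day 14 (10.8%). The methods' t-test, at an unadjusted p under 0.05 and a change above 1.5-fold, called 1 member on each day, Cyp2c68 at day 1, Cyp2d13 at day 3 and Cyp2c70 at day 14, and 0 after Benjamini-Hochberg adjustment. The share of all genes past this t-test is not given here, so these counts are not a result particular to the members.

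The median of the Cyp2c genes lay under the saline level at days 1 and 14 and near it at day 3, and that of the other members followed the same order. The median log2 difference at day 1 was -0.19 over 10 Cyp2c genes, -0.10 over 23 other members and 0.00 over all genes tested. At day 3 these medians were 0.06, -0.01 and 0.01, and at day 14 they were -0.33 over 10 Cyp2c genes, -0.22 over 19 other members and -0.01 over all genes. Below 0 lay 7 of 10 Cyp2c genes and 16 of 23 other members at day 1 (49.8% of all genes), 3 of 10 and 12 of 23 at day 3 (48.6%), and 9 of 10 and 13 of 19 at day 14 (52.2%). These medians moved with single livers. Without replicate 3 of the diclofenac group the day 14 medians were 0.00 for the Cyp2c genes and 0.01 for the other members, and without replicate 2 of the diclofenac group the day 1 medians were -0.08 and -0.08. In RNA of whole liver, fewer cells of a type and less RNA per cell cannot be told apart. Whether the Cyp2c genes differ from the other subfamilies was given no test, since the genes of a list share their livers.

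**Figure D1:**
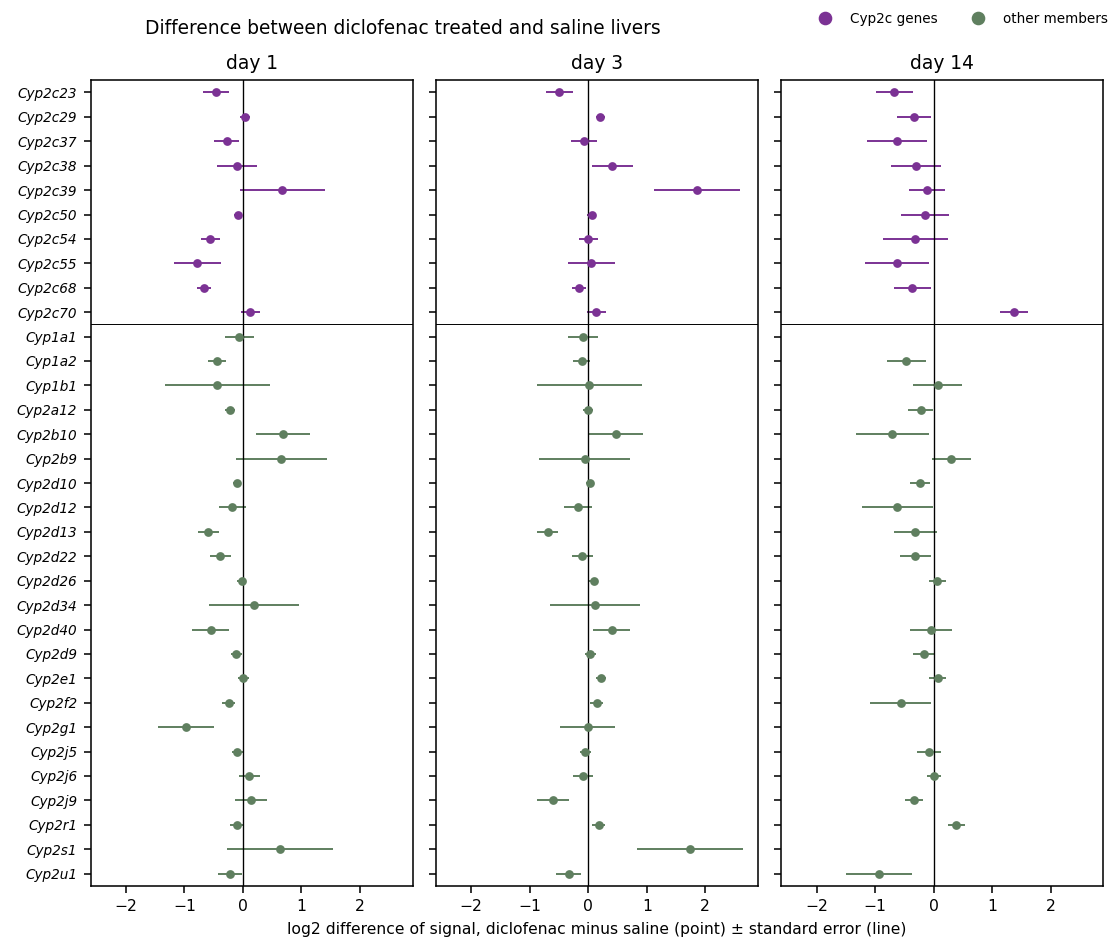
Log2 difference of array signal, diclofenac minus saline, for each member tested (point) with its standard error (line), at days 1, 3 and 14; Cyp2c genes stand above the line and other members under it. Most points lie close to 0, and Cyp2c70 at day 14, at 1.37, stands apart from the other 9 Cyp2c genes, which lie between -0.67 and -0.11.

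Cyp2c70 was the Cyp2c gene with the largest difference at day 14. In the mouse this enzyme makes muricholic acids by 6-beta-hydroxylation of chenodeoxycholic acid, a step the human liver lacks. Its array signals at day 14 were 12116, 11077, 19358, 11281 and 9373 in diclofenac treated livers, against 3746, 4993, 8082, 4063 and 3825 in saline livers. Every diclofenac signal exceeded every saline signal, the nearest being replicate 5 with diclofenac and replicate 3 with saline, and among 29 members this was the only gene without overlap between the groups (2.18% of all genes were higher and 1.6% lower without overlap). The log2 difference was 1.37 (SE 0.24, 2.59-fold, adjusted p = 0.0788 in limma; two-sided exact permutation test, p = 0.0079, which is the lowest value 5 against 5 livers allow). It passed the test without replicate 3 of the diclofenac group (1.21, adjusted p = 0.0193), which held the highest signal, and with all 22 arrays in 1 model (1.37, adjusted p = 0.00314). Leaving out any of the other 9 arrays of day 14 did not bring it past the threshold, and the adjusted p over the 10 arrays left out in turn was 0.0193 to 0.233.

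At day 1 the signals of Cyp2c70 were 26032, 36449 and 26663 in diclofenac treated livers, against 29174, 23657 and 28136 in saline livers. At day 3 they were 38778, 25032 and 34672 in diclofenac treated livers, against 27277, 30189 and 30691 in saline livers. The groups overlapped on both days, and the log2 differences were 0.13 and 0.14 (SE 0.16 each, adjusted p = 0.762 and 0.81). The mean of the 3 days' effects was 0.55 (adjusted p = 0.0503, under 0.05 when any of 6 of the 22 arrays was left out), and the day 14 effect exceeded the mean of the earlier effects by 1.24 (SE 0.27, adjusted p = 0.157, limma). The saline livers themselves were lower at day 14, where the diclofenac treated livers, at 9373 to 19358, stayed under the 23657 to 30691 of the saline livers of days 1 and 3.

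The bases before the annotated start are shown for Cyp2c70, for 3 further Cyp2c genes that hold the same motif and for Cyp2c29, which does not, since the signal of Cyp2c70 was high and those of the other 4 were low in replicate 3 of day 14. Capitals mark matches to CAAAGTNCA, which includes the motif CAAAGTCCA bound by the hepatocyte factor HNF4-alpha, and to TATAAA, the TATA box, both searched on both strands. Each sequence holds the 120 bases that end at the base before the start, from RefSeq on GRCm38.p6, 5' to 3' on the strand of the gene. They lie at chr19:40187287-40187406 (minus strand) for Cyp2c70, chr19:39741102-39741221 (minus strand) for Cyp2c68, chr19:39992304-39992423 (plus strand) for Cyp2c37, chr19:40089559-40089678 (plus strand) for Cyp2c50 and chr19:39286965-39287084 (plus strand) for Cyp2c29.
Cyp2c70: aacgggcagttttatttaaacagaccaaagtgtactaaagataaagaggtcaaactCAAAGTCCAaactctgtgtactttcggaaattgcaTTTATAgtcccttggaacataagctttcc
Cyp2c68: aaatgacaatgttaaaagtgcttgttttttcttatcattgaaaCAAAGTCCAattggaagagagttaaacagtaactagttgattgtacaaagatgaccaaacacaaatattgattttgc
Cyp2c37: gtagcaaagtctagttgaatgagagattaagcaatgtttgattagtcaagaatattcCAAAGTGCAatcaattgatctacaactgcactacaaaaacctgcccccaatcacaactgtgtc
Cyp2c50: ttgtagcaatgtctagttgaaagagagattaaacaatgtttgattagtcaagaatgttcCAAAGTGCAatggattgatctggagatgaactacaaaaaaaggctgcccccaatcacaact
Cyp2c29: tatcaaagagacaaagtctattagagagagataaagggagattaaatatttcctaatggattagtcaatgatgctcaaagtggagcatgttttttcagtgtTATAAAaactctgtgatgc
CAAAGTNCA begins 64 bases before the start of Cyp2c70, 77 before that of Cyp2c68, 63 before that of Cyp2c37 and 61 before that of Cyp2c50, each on the strand of the gene. It was found in 5 of 10 promoters of 9 Cyp2c genes (also in that of Cyp2c65), in 1 of 22 promoters of 21 other members (that of Cyp2d26) and in 0.588% of all 32851 promoters over the same 120 bases. TATAAA was found in 4 of 10 Cyp2c promoters, 8 of 22 promoters of other members and 6.34% of all promoters, and in Cyp2c70 it is read on the opposite strand. A match is a run of letters and shows no binding. The genes shown were picked for their differing directions in that liver, so these directions give no test of the motif. Its part in the signals was not tested. Hnf4a, which encodes HNF4-alpha, differed by 0.27 at day 1, 0.24 at day 3 and 0.20 at day 14 (adjusted p = 0.396, 0.524 and 0.694, limma).

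Cyp2c29, Cyp2c37, Cyp2c50 and Cyp2c54 are pericentral members of the cluster, and their enzymes are known to oxidise arachidonic acid. Cyp2c29 signals at day 14 were 16670.2, 16717, 5955, 21058 and 19814 in diclofenac treated livers, against 17976, 20934, 19206, 17621 and 17794 in saline livers. A single liver, replicate 3 with diclofenac, lay far under the rest, and the other 4 lay within or next to the saline range. The same held for Cyp2c50, with 23805, 27133, 6684, 32267 and 34391 in diclofenac treated livers, against 31018, 30687, 18164, 27967 and 16425 in saline livers. Cyp2c54 signals were 8312, 12094, 1431, 13058 and 13445 in diclofenac treated livers, against 12492, 13919, 6032, 11247 and 6277 in saline livers. In both genes the lowest signal of the day again belonged to replicate 3 with diclofenac, and replicates 3 and 5 with saline were lower than the other saline livers. Cyp2c37 gave 13178, 15621, 2307, 18461 and 18981 in diclofenac treated livers, against 21562, 21565, 9494, 19859 and 16582 in saline livers, with the same liver lowest. The log2 differences at day 14 were -0.34, -0.63, -0.15 and -0.31 for Cyp2c29, Cyp2c37, Cyp2c50 and Cyp2c54 (adjusted p = 0.679, 0.676, 0.91 and 0.858, limma), and without replicate 3 they were -0.02, -0.06, 0.28 and 0.29.

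At day 1 Cyp2c54 signals were 16101, 12546 and 20745 in diclofenac treated livers, against 20928, 25891 and 24561 in saline livers, so that the groups did not overlap (log2 difference -0.56, SE 0.16, adjusted p = 0.263). At day 3 Cyp2c54 gave 24580.5, 26025 and 21725 in diclofenac treated livers, against 23850.4, 26773 and 21556 in saline livers, with a difference of 0.00 (adjusted p = 0.995). Cyp2c29 gave at day 1 signals of 56588, 56819.7 and 49939.9 in diclofenac treated livers, against 50997, 52829 and 55146 in saline livers. At day 3 Cyp2c29 gave 57389, 53022 and 48787 in diclofenac treated livers, against 43206, 46168 and 48183 in saline livers. The 3 diclofenac treated livers of day 3 lay above the 3 saline livers by a log2 difference of 0.21 (SE 0.08, adjusted p = 0.381), and those of day 1 overlapped the saline livers (0.04, adjusted p = 0.879). At day 1 Cyp2c50 gave 40260.2, 44152 and 40781 in diclofenac treated livers, against 42456, 44644 and 45506 in saline livers. At day 3 Cyp2c50 gave 46587, 45317 and 46155 in diclofenac treated livers, against 42356, 47862 and 42319.9 in saline livers. Its groups overlapped on both days, with log2 differences of -0.08 and 0.06 (adjusted p = 0.651 and 0.818). Cyp2c37 differed by -0.28 and -0.07 (adjusted p = 0.609 and 0.944), and its day 1 value was 0.03 without replicate 2 of the diclofenac group.

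Cyp2c68 was the member with the smallest adjusted p at day 1. Its signals were 13712, 10050.3 and 12675 in diclofenac treated livers, against 20584, 17493 and 19503 in saline livers, without overlap, and the log2 difference was -0.67 (SE 0.12, adjusted p = 0.201; exact permutation p = 0.1, which is the lowest value 3 against 3 livers allow). The difference was -0.15 at day 3 (adjusted p = 0.691) and -0.36 at day 14 (adjusted p = 0.693, and 0.00 without replicate 3).

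Cyp2c23, an arachidonic acid epoxygenase, was below the saline mean in all 11 diclofenac treated livers. At day 1 its signals were 15268, 8240.0 and 14074 in diclofenac treated livers, against 15912, 16554 and 17495 in saline livers. At day 3 they were 13022, 8380.4 and 15650.4 in diclofenac treated livers, against 16357, 16984 and 17105 in saline livers, and again the groups did not overlap. At day 14 they were 6668, 6014, 2037, 6891 and 6533 in diclofenac treated livers, against 6664, 6599, 11027, 8456 and 9239 in saline livers, with replicate 3 of the diclofenac group far under the rest. The log2 differences of Cyp2c23 at days 1, 3 and 14 were -0.46, -0.49 and -0.67 (SE 0.23, 0.23 and 0.31, adjusted p = 0.419, 0.458 and 0.476, limma), and the day 14 value was -0.34 without replicate 3 and the day 1 value -0.18 without replicate 2 of the diclofenac group. The mean of the 3 days' effects was -0.54 (adjusted p = 0.142), and -0.43 without replicate 3 of day 14 (adjusted p = 0.0437). Leaving out that liver also brought the mean effect of Cyp2c68 (-0.28, adjusted p = 0.0380) and of Cyp2c70 (0.49, adjusted p = 0.0223) past the threshold.

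Cyp2c55, Cyp2c39 and Cyp2c38 are Cyp2c genes whose signals varied widely between livers. Cyp2c55, whose product hydroxylates arachidonic acid, gave at day 1 signals of 1025, 293 and 526 in diclofenac treated livers, against 1535, 771 and 677 in saline livers. At day 3 Cyp2c55 gave 844, 1165 and 1583 in diclofenac treated livers, against 929, 1246 and 1209 in saline livers. At day 14 Cyp2c55 gave 65.6, 160.3, 23.1, 229 and 64.6 in diclofenac treated livers, against 95.5, 118, 221, 119.7 and 106 in saline livers. The groups overlapped on each day, with log2 differences of -0.78, 0.05 and -0.63 (SE 0.40, 0.40 and 0.54, adjusted p = 0.436, 0.983 and 0.685). Without replicate 2 of the diclofenac group the day 1 value of Cyp2c55 was -0.34, and without replicate 3 its day 14 value was -0.17. Cyp2c39, a retinoic acid hydroxylase, gave at day 1 signals of 114, 353 and 242 in diclofenac treated livers, against 128, 135 and 138 in saline livers. At day 3 Cyp2c39 gave 342, 353 and 142 in diclofenac treated livers, against 138, 166 and 15.7 in saline livers. Its day 3 difference of 1.86 (SE 0.73, adjusted p = 0.369) came with overlap between the groups, and replicate 3 with saline was far under the rest. Without that saline liver the difference was 0.77. At day 14 Cyp2c39 gave 163, 317, 151, 201 and 256 in diclofenac treated livers, against 317, 352, 143, 252 and 148 in saline livers, and the differences at days 1 and 14 were 0.68 and -0.11 (adjusted p = 0.721 and 0.907), the second being 0.01 without replicate 3 of the diclofenac group. Cyp2c38 differed by -0.10, 0.41 and -0.31 (adjusted p = 0.926, 0.712 and 0.809), and by 0.12 at day 14 without that liver. Cyp2c65 was too dim to be tested, with signals of 1.81 to 53.9 in diclofenac treated livers and 1.14 to 48.2 in saline livers.

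**Figure D2:**
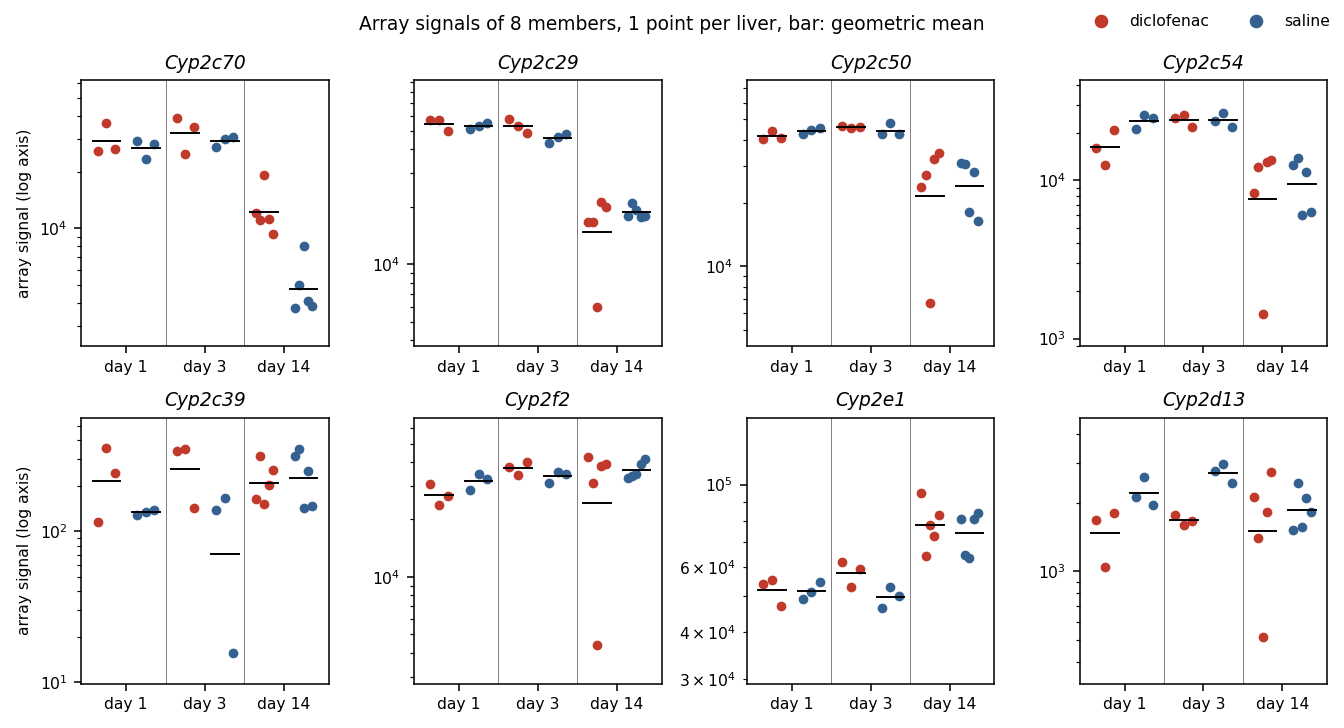
Array signals (log axis) of 8 members, 1 point per liver, at days 1, 3 and 14, diclofenac treated livers to the left of saline livers; bars are geometric means. Cyp2c70 is higher in all 5 diclofenac treated livers of day 14, Cyp2d13 is lower in all 3 of day 3, and a single diclofenac treated liver of day 14 lies far under the rest in Cyp2c29, Cyp2c50, Cyp2c54, Cyp2f2 and Cyp2d13 but not in Cyp2e1.

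Among the other subfamilies, Cyp2d13 came closest to the threshold. The Cyp2d genes are the mouse counterparts of human CYP2D6, the debrisoquine hydroxylase. At day 3 the signals of Cyp2d13 were 1768, 1595 and 1666 in diclofenac treated livers, against 2756, 2954 and 2432 in saline livers. The groups did not overlap, and the log2 difference was -0.69 (SE 0.18, adjusted p = 0.169). It passed when replicate 2 with diclofenac of day 1, an array of the same model, was left out (adjusted p = 0.010), and with day 3 fitted on its own arrays (adjusted p = 0.0139). A second probe set of the gene gave -0.80 at day 3 (adjusted p = 0.0414 over every probe set, and 0.0352 where only probe sets without such a suffix were used). At day 1 the signals were 1677, 1046 and 1809 in diclofenac treated livers, against 2118, 2605 and 1959.9 in saline livers, also without overlap (log2 difference -0.59, adjusted p = 0.293). At day 14 they were 2124, 1393, 513, 1823 and 2718 in diclofenac treated livers, against 1518, 2443, 1563, 2088 and 1828 in saline livers (-0.31, adjusted p = 0.772, and 0.07 without replicate 3). The other Cyp2d genes differed by -0.55 to 0.19 at day 1 and -0.18 to 0.40 at day 3. Cyp2d10 gave at day 1 signals of 35425, 36270.5 and 34786 in diclofenac treated livers, against 35922, 40136 and 37768 in saline livers. At day 3 Cyp2d10 gave 36594, 37348 and 37842 in diclofenac treated livers, against 34487, 38003 and 36861 in saline livers, and the groups overlapped on both days (-0.09 and 0.03). At day 14 Cyp2d10 gave 38842, 30659, 19578, 34997 and 33739 in diclofenac treated livers, against 37632, 32995, 31962, 42121 and 36826 in saline livers, where replicate 3 with diclofenac was lowest (-0.23, adjusted p = 0.638, and -0.07 without it).

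The genes that respond to the receptors for foreign compounds showed no called change. Cyp2b10, the classical target of the constitutive androstane receptor, gave at day 1 signals of 1473, 4213 and 1793 in diclofenac treated livers, against 618, 2249 and 1905 in saline livers. At day 3 Cyp2b10 gave 4428, 4412 and 3111 in diclofenac treated livers, against 3006, 3764 and 1988 in saline livers. At day 14 Cyp2b10 gave 5631, 2175, 411, 5692 and 2081 in diclofenac treated livers, against 5333, 3622, 2879, 5819.9 and 2098 in saline livers. Replicate 2 with diclofenac was highest at day 1 and replicate 3 with diclofenac lowest at day 14, and the groups overlapped on each day (0.69, 0.48 and -0.70, adjusted p = 0.538, 0.755 and 0.695). Without these livers the differences were 0.23 at day 1 and -0.09 at day 14. Cyp2b9, which is higher in females of the species, gave at day 1 signals of 59.3, 559 and 298 in diclofenac treated livers, against 100.4, 111 and 227 in saline livers. At day 3 Cyp2b9 gave 617, 443 and 326 in diclofenac treated livers, against 437, 1356 and 169.6 in saline livers. At day 14 Cyp2b9 gave 127, 104, 62.6, 135 and 236 in diclofenac treated livers, against 89.3, 157, 91.1, 93.1 and 78.2 in saline livers. Overlap was seen on each day (0.66, -0.06 and 0.30, adjusted p = 0.747, 0.989 and 0.756). Without the same livers Cyp2b9 differed by -0.04 at day 1 and 0.54 at day 14.

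Cyp1a1 and Cyp1a2 are targets of the aryl hydrocarbon receptor, and Cyp1a2 is made in the unexposed liver as well. Cyp1a2 gave at day 1 signals of 20978, 12682 and 18484 in diclofenac treated livers, against 22929, 23150.3 and 23299 in saline livers, without overlap. At day 3 Cyp1a2 gave 23433, 24662 and 29708 in diclofenac treated livers, against 27232, 27299 and 29138 in saline livers. At day 14 Cyp1a2 gave 11966, 8828, 3405, 12845 and 12434 in diclofenac treated livers, against 11982, 13569, 9065, 16624 and 11675 in saline livers, and replicate 3 with diclofenac was lowest by far. The log2 differences were -0.44, -0.11 and -0.46 (SE 0.15, 0.15 and 0.33, adjusted p = 0.306, 0.837 and 0.625), and the day 14 value was -0.11 when replicate 3 was left out. Cyp1a1, at low signal, gave at day 1 signals of 155, 148 and 149 in diclofenac treated livers, against 179, 129.9 and 167 in saline livers. At day 3 Cyp1a1 gave 120.3, 179 and 149 in diclofenac treated livers, against 208, 125 and 148 in saline livers (-0.06 and -0.09, adjusted p = 0.938 and 0.936). At day 14, where it was not tested, Cyp1a1 gave 27.7, 60.5, 73.3, 9.97 and 9.18 in diclofenac treated livers, against 26.8, 77.5, 74, 88.4 and 62.5 in saline livers. The groups of Cyp1a1 overlapped on each day.

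Cyp2e1, which oxidises ethanol and paracetamol, varied little between the livers of a day. At day 1 its signals were 54013, 55164 and 47202 in diclofenac treated livers, against 49292, 51346 and 54584 in saline livers. At day 3 they were 61839, 53122 and 59229 in diclofenac treated livers, against 46569.9, 53019 and 50007 in saline livers. At day 14 they were 94652, 64093, 77980.1, 72562 and 82868 in diclofenac treated livers, against 80549, 64789, 63380.2, 80966 and 84004 in saline livers. The groups did not overlap at day 3, at a log2 difference of 0.22 (SE 0.09, adjusted p = 0.384), and overlapped at days 1 and 14 (0.01 and 0.07, adjusted p = 0.98 and 0.872), and the day 14 value was 0.07 without replicate 3 of the diclofenac group. Cyp2f2, a periportal member that oxidises naphthalene, gave at day 14 signals of 42735, 31083, 4413, 38356 and 39019.5 in diclofenac treated livers, against 32833, 33982, 34639, 38868 and 41277 in saline livers. Replicate 3 with diclofenac stood apart from 9 livers between 31083 and 42735, and the difference was -0.56 with it (adjusted p = 0.706) and 0.05 without it. At day 1 Cyp2f2 gave 30822, 23899.5 and 26422 in diclofenac treated livers, against 28564, 34517 and 32596 in saline livers. At day 3 Cyp2f2 gave 37635, 34043 and 39848 in diclofenac treated livers, against 31015, 35364 and 34616 in saline livers (-0.24 and 0.14, adjusted p = 0.376 and 0.676), with overlap on both days. Cyp2a12, which acts on secondary bile acids in the mouse, gave at day 1 signals of 21114, 18512 and 19681 in diclofenac treated livers, against 21555, 24383 and 23301 in saline livers, without overlap. At day 3 Cyp2a12 gave 23334, 22667 and 26199 in diclofenac treated livers, against 22843, 25291 and 24542 in saline livers. At day 14 Cyp2a12 gave 20249.6, 20833, 10463, 25761 and 26498 in diclofenac treated livers, against 22769, 23413, 23552, 23837 and 21649 in saline livers. Replicate 3 with diclofenac was again lowest, and the log2 differences were -0.22, -0.01 and -0.22 (adjusted p = 0.335, 0.983 and 0.72), with 0.01 at day 14 without that liver.

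Cyp2r1 and Cyp2u1 reached an unadjusted exact p under 0.05 at day 14 but not the adjusted threshold. Cyp2r1, a 25-hydroxylase of vitamin D, gave at day 14 signals of 804, 531, 779, 511 and 757 in diclofenac treated livers, against 461, 527, 553, 487 and 507 in saline livers, above the saline mean in 5 of 5 livers (0.39, SE 0.15, adjusted p = 0.38; two-sided exact permutation test, p = 0.0476), and 0.33 without replicate 3 of the diclofenac group. At day 1 Cyp2r1 gave 1095, 1371 and 1392 in diclofenac treated livers, against 1364, 1417 and 1342 in saline livers. At day 3 Cyp2r1 gave 1294, 1397 and 1331 in diclofenac treated livers, against 1230.4, 1107 and 1217 in saline livers, without overlap, and its differences of these days on the log2 scale were -0.10 and 0.18 (adjusted p = 0.709 and 0.581). Cyp2u1, a fatty acid hydroxylase, gave at day 14 signals of 218, 186, 20.8, 219 and 169 in diclofenac treated livers, against 300.4, 200.2, 243, 231 and 232 in saline livers. It had the largest negative difference of that day (-0.93, SE 0.56, adjusted p = 0.564; two-sided exact permutation test, p = 0.0397), and -0.28 without replicate 3. At day 1 Cyp2u1 gave 530.3, 288 and 359.7 in diclofenac treated livers, against 486, 482 and 371 in saline livers. At day 3 Cyp2u1 gave 285, 289 and 349.7 in diclofenac treated livers, against 336, 411 and 419 in saline livers. The differences of these days, with overlap, were -0.22 and -0.33 (adjusted p = 0.678 and 0.602). A second probe set of Cyp2u1 gave -0.23, 0.16 and -0.41 at days 1, 3 and 14, so that the sign differed at day 3.

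Cyp2j5, an arachidonic acid epoxygenase, differed by -0.10, -0.05 and -0.08 (adjusted p = 0.671, 0.899 and 0.902), and was lowest at day 14 in replicate 3 with diclofenac, with 14489, 16065, 8287, 15720.1 and 20299.8 in diclofenac treated livers, against 14720.5, 18172, 13114, 15988 and 14436 in saline livers. At day 1 Cyp2j5 gave 18952, 17311 and 19294 in diclofenac treated livers, against 18014, 20889.7 and 20691 in saline livers. At day 3 Cyp2j5 gave 19701, 16571 and 20046 in diclofenac treated livers, against 18477, 19749 and 19796 in saline livers. The groups of these days overlapped, and the day 14 difference was 0.12 without replicate 3 of the diclofenac group. Cyp2j9, a related epoxygenase, gave at day 3 signals of 153, 228 and 144 in diclofenac treated livers, against 252, 347 and 203 in saline livers. It differed by 0.14, -0.61 and -0.33 (adjusted p = 0.85, 0.44 and 0.455), with overlap on each day. At day 1 Cyp2j9 gave 302, 401 and 210.2 in diclofenac treated livers, against 239, 267 and 295 in saline livers. At day 14 Cyp2j9 gave 387, 408, 324, 407 and 272 in diclofenac treated livers, against 500.0, 374, 492, 501 and 389 in saline livers, below the saline mean in 5 of 5 livers, and the difference was -0.30 without replicate 3 of the diclofenac group.

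Cyp2s1, found mostly outside the liver, gave at day 3 signals of 79.3, 73.3 and 73.7 in diclofenac treated livers, against 13, 18.2 and 48.3 in saline livers, without overlap but with a wide spread between saline livers (1.75, SE 0.91, adjusted p = 0.509). At day 1 Cyp2s1 gave 95.5, 30.4 and 88.3 in diclofenac treated livers, against 101, 8.94 and 77 in saline livers (0.63, adjusted p = 0.798). At day 14, where it was not tested, Cyp2s1 gave 74.5, 38.8, 66.6, 14.5 and 47.7 in diclofenac treated livers, against 50.0, 27, 68.3, 76.5 and 40.7 in saline livers. Cyp2g1, known from the olfactory mucosa, gave at day 1 signals of 99.8, 54.1 and 177 in diclofenac treated livers, against 206, 208 and 168 in saline livers (-0.97, SE 0.48, adjusted p = 0.419). At day 3 Cyp2g1 gave 175, 119 and 81 in diclofenac treated livers, against 200.1, 135 and 63.8 in saline livers (-0.01, adjusted p = 0.996). At day 14, where it was not tested, Cyp2g1 gave 57.6, 90.8, 39.2, 74.5 and 37.7 in diclofenac treated livers, against 51.6, 58.2, 50.4, 60.6 and 52.5 in saline livers. The groups of Cyp2g1 overlapped on each day.

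The other members that were tested did not pass either. Cyp2d9, Cyp2d12, Cyp2d22, Cyp2d26 and Cyp2d40 gave log2 differences of -0.16, -0.62, -0.31, 0.07 and -0.04 at day 14 (adjusted p = 0.772, 0.72, 0.678, 0.876 and 0.975). Without replicate 3 of the diclofenac group these were -0.03, -0.02, -0.01, 0.15 and 0.26. Cyp2d34 differed by 0.19 and 0.12 at days 1 and 3 (adjusted p = 0.939 and 0.978). Cyp1b1 differed by -0.44, 0.01 and 0.07 over the 3 days (adjusted p = 0.865, 0.998 and 0.962), and its other 2 probe sets, at low signal, gave 1.70 and -0.85 at day 1, so that the 3 disagreed in sign. Its main probe set gave -0.28 at day 14 without replicate 3 and 0.83 at day 1 without replicate 2 of the diclofenac group, both of the opposite sign. Cyp2j6 differed by 0.11, -0.09 and 0.01 (adjusted p = 0.828, 0.903 and 0.985), and by 0.03 at day 14 without replicate 3. Its second probe set gave -0.17, -0.07 and -0.32 over the 3 days, of the opposite sign at days 1 and 14. The second probe sets of Cyp2j5 and Cyp2d22 had the sign of the first on each day. The 3 probe sets of Cyp2b10 agreed, at 0.48 to 0.69 at day 1, 0.36 to 0.48 at day 3 and -0.82 to -0.54 at day 14. Signals of the members too dim to be tested on any single day were 10.1 to 88.7 in diclofenac treated livers and 9.35 to 100.1 in saline livers for Cyp2b13, 7.16 to 91.3 in diclofenac treated livers and 3.11 to 67.7 in saline livers for Cyp2b19, 5.15 to 77.8 in diclofenac treated livers and 5.98 to 87.9 in saline livers for Cyp2j11 and 6.57 to 78.9 in diclofenac treated livers and 4.1 to 54.8 in saline livers for Cyp2j13.

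The members without overlap at day 1 were Cyp1a2, Cyp2a12, Cyp2c23, Cyp2c54, Cyp2c68 and Cyp2d13, 6 of 33 and all lower (8.1% of all genes were lower and 8.23% higher without overlap). At day 3 they were Cyp2c29, Cyp2e1, Cyp2r1 and Cyp2s1, 4 of 33 and higher (10.8% of all genes), and Cyp2c23 and Cyp2d13, 2 of 33 and lower (9.21%).

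The member values of replicate 3 of the diclofenac group at day 14 were low as a group. In this liver 25 of 29 members lay below the mean of the saline livers and 17 lay more than 2-fold below it, against 0 of 29 in each of the other 4 diclofenac treated livers and 10.9% of all genes in the same liver. The median over the members was -1.92 for the Cyp2c genes and -0.88 for the others on the log2 scale, where the other 4 livers had Cyp2c medians of -0.21 to 0.22. The lowest signal among the 10 livers of the day fell in it for 21 of 29 members (29.7% of all genes), 8 of 10 Cyp2c genes among them, and the highest for 2 of 29 (27.9%), Cyp2c70 and Cyp1b1. Pericentral and periportal members were both low there, since the signals were 5955 for Cyp2c29, 1431 for Cyp2c54 and 4413 for Cyp2f2. Cyp2e1, also pericentral, was at 77980.1, within the 64093 to 94652 of the other 4 livers.

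The same liver held the highest signals of several genes of inflammation. The acute phase gene Lcn2 was at 110278 in it and at 35309.5 to 50377 in the other 4 diclofenac treated livers, against 1465 to 16436 in saline livers, and the granulocyte gene S100a8 was at 13001 in it and at 167 to 988 in the others. The summed signal of 4 neutrophil markers (S100a8, S100a9, Ngp and Camp) was 23050 in it, 384 to 2047 in the other 4 diclofenac treated livers and 98.6 to 267 in saline livers, and that of 5 Kupffer cell markers was 20789, 3885 to 6474 and 2558 to 6874. Hepatocyte markers summed to 579728, within the 442406 to 603371 of the other 4 and not lower than the 405468 to 560143 of saline livers. Pericentral hepatocyte markers outside the P450 genes (Glul, Oat, Rgn, Lect2, Slc1a2 and Axin2) summed to 36095, against 70126 to 80865 in the other 4 and 60164 to 88013 in saline livers, and periportal markers to 52689, against 62169 to 79633 and 68023 to 79775. None of these cell type markers was called on a single day, when at most 0.202% of all genes were. Their part in the low member signals was not tested.

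Replicate 2 of the diclofenac group at day 1 held the lowest signal of several members as well. In it 5 of 33 members lay more than 2-fold below the saline mean, against 1 of 33 in each of the other 2 diclofenac treated livers and 7.04% of all genes in the same liver. The lowest signal of the day fell in it for 15 of 33 members (29% of all genes) and the highest for 8 of 33 (27.6%). The Cyp2c median of this liver was -0.61, and -0.13 and -0.14 in the other 2. Without it the day 1 difference was -0.23 for Cyp1a2, 0.31 for Cyp2c39, -0.37 for Cyp2c54 and -0.03 for Cyp2c70. It was -0.34 for Cyp2d13, -0.54 for Cyp2g1 and -0.02 for Cyp2u1, and each of these values was closer to 0 than with that liver. Other members moved the other way, since the differences of Cyp1b1, Cyp2r1 and Cyp2s1 lay further from 0 without this liver. Its Lcn2 signal was 67973, against 18782 and 35352 in the other 2, and its neutrophil markers summed to 20623, while the lowest liver of the group gave 875 and saline livers gave 504 to 634. The neutrophil sum of the remaining diclofenac treated liver is not given here, so that sum does not set replicate 2 apart from it. Hepatocyte markers summed to 290049, within the 277617 to 293844 of saline livers. The acute phase and granulocyte list as a whole had 8 of 9 genes called as higher in the mean of the 3 days' effects (1.68% of all genes were called either way). It had 4 of 9 called as higher at day 3 (0.202%) and 0 of 9 at days 1 and 14 (0% on each). Its median log2 differences were 2.63, 3.22 and 3.56 at days 1, 3 and 14, and its part in the member values was not tested.

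**Figure D3:**
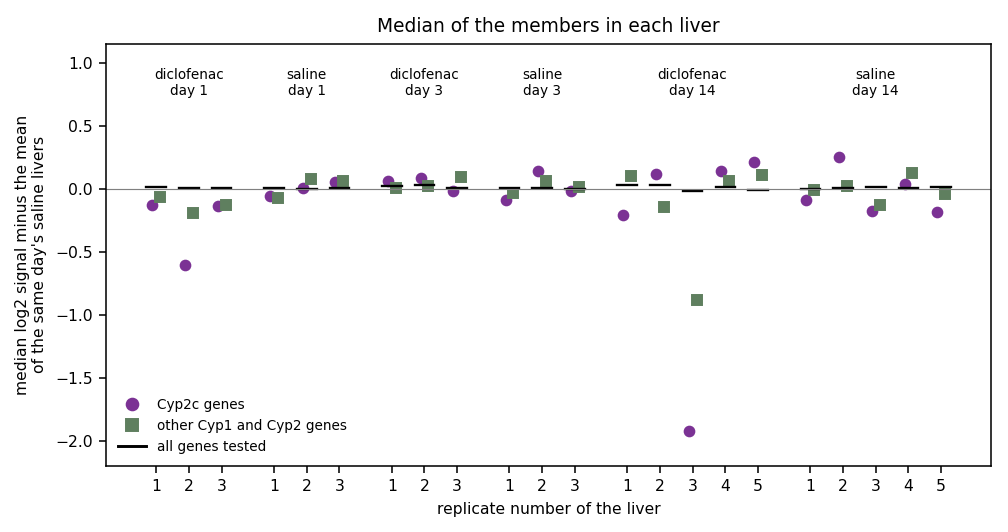
Median log2 signal of the Cyp2c genes (circles), the other members (squares) and all genes tested (lines) in each liver, relative to the mean of the same day's saline livers. Replicate 3 with diclofenac at day 14 lies at -1.92 for the Cyp2c genes and -0.88 for the other members, while the other livers lie between -0.61 and 0.25.

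**Figure D4:**
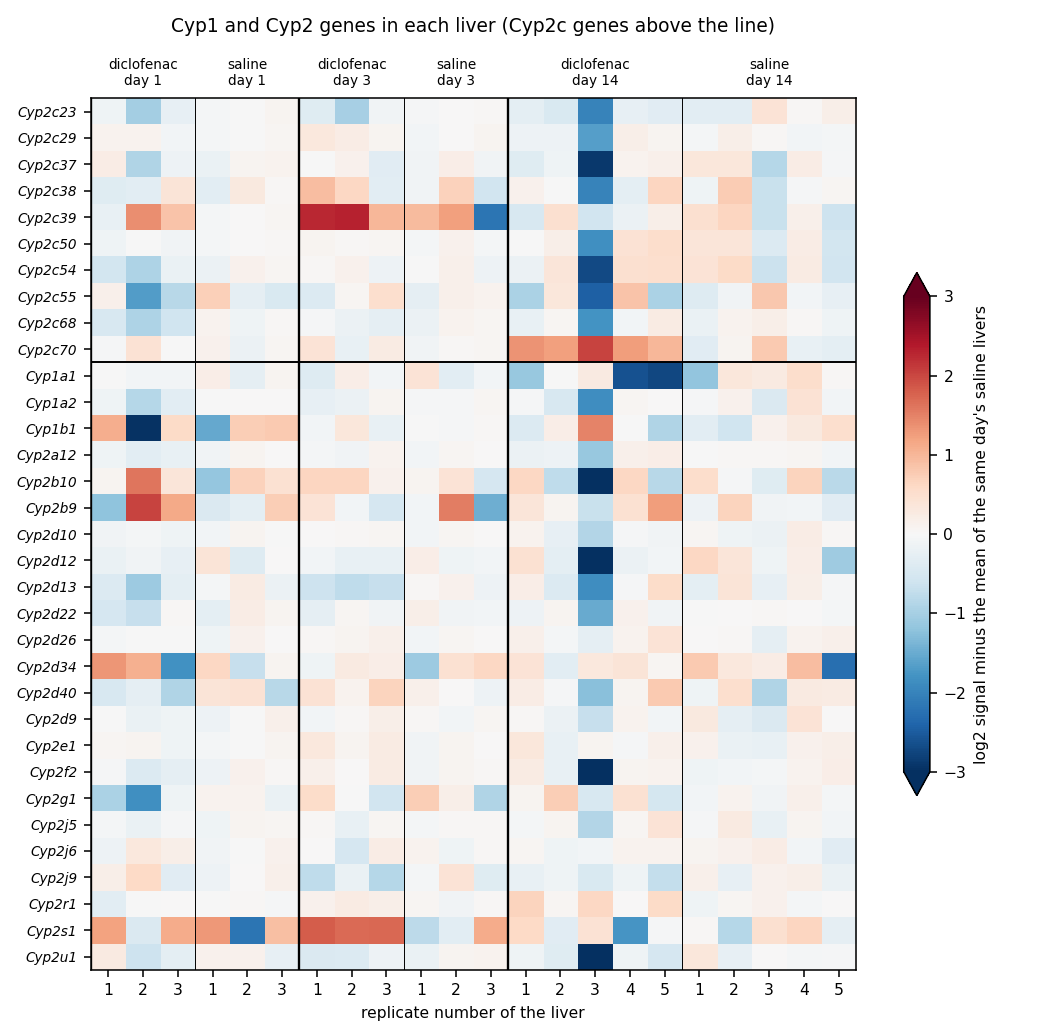
Log2 signal of each member (rows, Cyp2c genes above the line) in each liver (columns, by replicate number), relative to the mean of the same day's saline livers; red is higher and blue lower, and values beyond 3 are drawn at 3. The column of replicate 3 with diclofenac at day 14 is blue in most rows and red in Cyp2c70. Cyp1a1, Cyp2d34, Cyp2g1 and Cyp2s1 were not tested at day 14.

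None of the partners of the P450 enzymes was called on any of the 3 days. The test called 0% of all genes at days 1 and 14 and 0.202% at day 3, so these counts do not set the partners apart. Of 4 electron transfer genes measured, 0 passed, with a median log2 difference of -0.12, 0.09 and -0.13 at days 1, 3 and 14. Cyb5a, cytochrome b5, differed by -0.04, 0.08 and -0.12 (adjusted p = 0.84, 0.729 and 0.834). In replicate 3 of day 14 this list too was lowest, with a summed signal of 63972 against 92274 to 117271 in the other 4 diclofenac treated livers. Of 7 genes of haem synthesis, 0 passed (medians -0.19, -0.12 and -0.10). Alas1, the rate-limiting enzyme of that pathway, differed by -0.51, -0.71 and 0.34 (adjusted p = 0.473, 0.38 and 0.441). Of 4 genes of haem breakdown, 0 passed (medians 0.11, 0.01 and 0.25), and Hmox1, haem oxygenase 1, differed by 0.76, 0.55 and 0.59 (adjusted p = 0.251, 0.336 and 0.702). Of 6 xenobiotic receptor genes tested, 0 passed (medians 0.04, 0.29 and 0.08), among them Nr1i3, the constitutive androstane receptor, with -0.01, 0.01 and -0.28 (adjusted p = 0.992, 0.994 and 0.78). Of 15 hepatocyte transcription factors, 0 passed (medians -0.29, -0.19 and -0.06).

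The saline livers of day 14 were also set against those of days 1 and 3, in the model of all 22 arrays. Of 34 members, 12 passed the test, a share of 35.3% beside 28.4% of all genes, and 10 of them were lower (16% of all genes) and 2 higher (12.4%). The Cyp2c genes gave 6 of 10, all lower, and the other members 6 of 24. Cyp2c55 was at 95.5 to 221 in saline livers of day 14, against 677 to 1535 at day 1 and 929 to 1246 at day 3, a log2 difference of -3.02 (SE 0.44, adjusted p = 3.72e-05, limma). Cyp2c70 was at 3746 to 8082 at day 14, against 23657 to 29174 at day 1 and 27277 to 30691 at day 3 (-2.57, SE 0.19, adjusted p = 1.79e-08). Neither gene overlapped between these days. Cyp2c29 (-1.40, adjusted p = 5.26e-05), Cyp2c54 (-1.34, 0.0188), Cyp2c23 (-1.02, 0.00537) and Cyp2c50 (-0.88, 0.0291) were lower too. Cyp2g1 (-1.48, 0.00205), Cyp1a1 (-1.36, 0.0312), Cyp2r1 (-1.33, 6.97e-08) and Cyp1a2 (-1.04, 0.00386) were the other members that were lower. Cyp2j9 was higher (0.76, 0.00309), and so was Cyp2e1 with 63380.2 to 84004 at day 14, against 49292 to 54584 at day 1 and 46569.9 to 53019 at day 3 (0.55, 0.000527).

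The calls of Cyp1a1, Cyp2c50 and Cyp2c54 between saline groups were lost when single saline arrays were left out, those of Cyp1a1 without replicate 1 or 3 of day 1, replicate 1 of day 3 or replicate 1 or 5 of day 14, those of Cyp2c50 without replicate 3 of day 1, replicate 2 of day 3 or replicate 3 or 5 of day 14, and those of Cyp2c54 without replicate 3 or 5 of day 14. Age, length of handling and the run of arrays cannot be told apart between the days. Between the saline livers of day 3 and day 1, 0 of 33 members passed (0.217% of all genes).

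**Figure D5:**
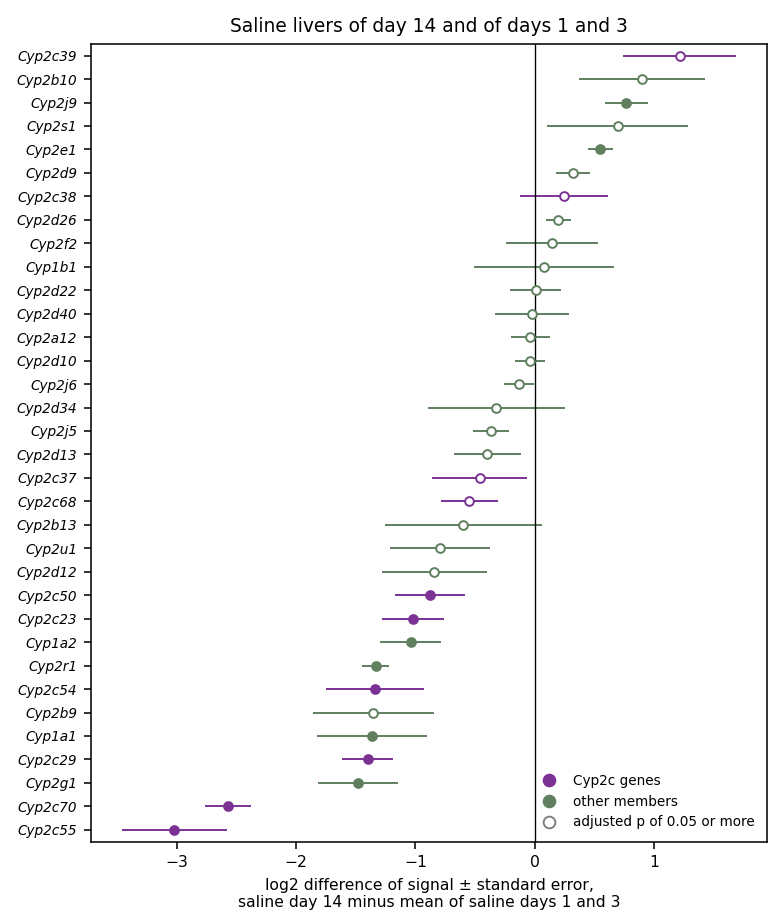
Log2 difference of array signal between the saline livers of day 14 and the mean of the saline livers of days 1 and 3 (point) with its standard error (line); filled points passed the test. Cyp2c55 and Cyp2c70 lie lowest, at -3.02 and -2.57, and Cyp2j9 and Cyp2e1 are the filled points above 0.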

How the data were processed

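RNA of 22 mouse livers was measured on Affymetrix Mouse 430 2.0 arrays, with 1 liver on each. The authors computed 1 intensity per probe set with MAS5 (version not given in the sources used here), and the deposited intensity values are linear with the same trimmed mean (2% trimmed at each end) of 500.0 on every array. No column was left unassigned (0 columns of other samples). Of 45101 probe sets, 34958 had 1 gene symbol in the platform annotation, 932 had several and 9211 had none; the 38 member symbols were all matched in RefSeq. The probe set of highest mean signal stood for a gene. Signals were log2 transformed without a pseudocount, and genes above the array's median in at least 3 arrays of a model were tested with limma 3.58.1 (lmFit, eBayes with a trend, R 4.3.3), with Benjamini-Hochberg adjustment over all genes tested. Days 1 and 3 shared a model of 12 arrays, day 14 had one of 10, and the mean of the 3 days and the saline groups used all 22. Medians were made in R 4.3.3. Motif matches were made in Python 3.11.15 with pandas 2.3.3 and numpy 2.4.6, and figures with matplotlib 3.10.9. The statistics were tested on simulated data. Single values were compared with two-sided exact permutation tests. The number of arrays limits the precision.

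The rule for named genes took the members past the test in any comparison, the 4 with the largest difference on each day, the member of highest mean signal in each main subfamily, and Cyp2b9, Cyp2c39 and Cyp2c55, which the study names, all with the value of every liver, and every Cyp2c gene with its differences. Of each partner list up to 4 genes could be named; the members and gene lists were chosen with earlier results of these data known. Alternatives covered the filter, scaling, pseudocount, choice of probe sets, arrays in the model, array weights, replicate block, test and leaving out each array. The methods' t-test (Welch's) is one the study used. The study reports significant changes of Cyp2b9 and Cyp2c55 after a single treatment and of Cyp2c39 after repeated treatment. Here none of these genes was called for diclofenac on any day, by limma or by that t-test. The second threshold, an unadjusted limma p under 0.01 with at least 1.5-fold, takes only its limits from the study, which applied them with another test. Own probe sets of Cyp2c40, Cyp2a4, Cyp2a5 and Por were not analysed here.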

Additional observations from a re-analysis of the deposited data

Results flagged for a closer look

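In 44 sets of 5 livers, 1 set for each named member and group of day 14, 10 held a liver set apart on the log2 scale. Its gap to its nearest neighbour was over 0.71 of the whole range of the group's log2 signals. Chance gives about 1 in 20 such sets where sets are independent. These sets share their livers, and some genes were named for their day 14 differences, so the count cannot be set against that share. Of the 10 sets, 8 fell in replicate 3 of the diclofenac group, where each was the lowest signal. Among the Cyp2c genes they were Cyp2c23 with a signal of 2037 (6014 to 6891 in the other 4 diclofenac treated livers), Cyp2c29 with 5955 (16670.2 to 21058), Cyp2c50 with 6684 (23805 to 34391) and Cyp2c54 with 1431 (8312 to 13445). Among the other members they were Cyp1a2 with 3405 (8828 to 12845), Cyp2a12 with 10463 (20249.6 to 26498), Cyp2f2 with 4413 (31083 to 42735) and Cyp2u1 with 20.8 (169 to 219). Both remaining cases were highest signals among saline livers, that of Cyp2b9 in replicate 2, at 157 (78.2 to 93.1 in the other 4 saline livers), and that of Cyp2c55 in replicate 3, at 221 (95.5 to 119.7). No member changed without overlap in opposite directions on different days.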

How the results depend on the processing

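The count of members called for diclofenac was 0 on each day. At day 3 it became 1 (Cyp2d13 each time) with every probe set, unique probe sets, each day on its own arrays and array weights. The difference was -0.80 (adjusted p = 0.0352) with unique probe sets and -0.68 (0.0342) with array weights. Called in all were 36 of 22168 probe sets, then 19 of 11189, 145 of 11869 and 156 of 12884 genes, against 26 of 12884 in the main model. At day 14 the member count became 1 with all 22 arrays in 1 model, with array weights (Cyp2c70, 1.17, adjusted p = 0.0207) and with the replicate block. All genes called there were 133 of 13340, 109 of 11884 and 1 of 11884, against 0 of 11884 in the main model. The methods' t-test gave 1 member on each of the 3 days, where all genes gave 188, 321 and 284. The second threshold gave 2 at day 1, 1 at day 3, 1 at day 14 and 1 for the day 14 effect against the earlier effects. All genes gave 248, 258, 205 and 117 at that threshold. The count for the mean of the 3 days was 1 with the filter at the 60th percentile and the array median added before log2, each used alone. It was also 1 with array weights and with the replicate block. All genes called were 242 of 11103, then 248, 484 and 167 of 13340, against 224 of 13340 in the main model. Between the saline groups the count was 19 with array weights, where 5197 of 13340 genes passed, against 3787 of 13340 in the main model. The day 3 medians were -0.0231 for the Cyp2c genes and -0.0676 for the other members with quantile normalization, and -0.00190 and -0.0692 with median centring, so that the sign of the Cyp2c median turned.

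Leaving out each array in turn gave 0 to 1 members at day 3 and at day 14, 0 to 3 for the mean of the 3 days (above 0 without replicate 1 of diclofenac day 1, replicate 2 of diclofenac day 3, replicate 3, 4 or 5 of diclofenac day 14 or replicate 3 of saline day 14) and 9 to 19 between the saline groups, the lowest without replicate 5 of saline day 14 and the highest without replicate 3 of diclofenac day 14. All genes called ranged over 0 to 5 at day 1, 0 to 178 at day 3 and 0 to 123 at day 14. For the mean of the 3 days, 4.04% of all genes passed without replicate 3 of diclofenac day 14, where 3 members did. Between the saline groups 25.3% of all genes passed at the lowest member count and 35.3% at the highest. The Cyp2c median was -0.34 to -0.08 at day 1, 0.0166 to 0.125 at day 3 and -0.52 to 0.00 at day 14, and the median of the other members was -0.16 to -0.07, -0.0110 to 0.0458 and -0.28 to 0.01. Replicate numbers did not pair the samples, since 1 of 11 pairs had a correlation over 0.1; with the replicate block Cyp2c70 at day 14 had an adjusted p of 0.0354 and the count was 1. Of 1443 values of named members under alternatives, 1435 stayed on the same side of the threshold, 8 passed it and 52 changed sign, none of them called. The cause of these changes was not tested. With 3 or 5 livers a group, small differences were not detectable, and dim probe sets such as those of Cyp2c65 and Cyp2j11 give no usable level.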

Other observations

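A probe set shared by Cyp2a5 and Cyp2a4, the coumarin and testosterone hydroxylases of the mouse, lies outside the rule for members because it names both genes. Its signals at day 14 were 8040.1, 8005, 722, 17822 and 10803 in diclofenac treated livers, against 10900.5, 10654, 21543, 11795 and 14462 in saline livers. Replicate 3 with diclofenac was lowest by far. At day 1 they were 15027, 3192 and 24166 in diclofenac treated livers, against 19181, 23060.0 and 23415 in saline livers, with replicate 2 of the diclofenac group lowest. The log2 differences were -1.05, 0.08 and -1.12 at days 1, 3 and 14, and two-sided exact permutation tests gave p = 0.4, 0.9 and 0.159.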
